A study of Mus musculus with 9 samples.

Results

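The regions described here are the Hdac1 and Hdac2 peaks of 1 mouse embryonic stem (ES) cell line, Hd2lox, sorted by whether a peak of one histone deacetylase overlapped a peak of the other. The Hd2lox Hdac1 list held 7519 peaks and the Hd2lox Hdac2 list 9082, together 16601 of the 46202 peaks in the 6 peak lists of the series. A peak was called shared where at least 1 bp of it overlapped a peak of the other list, and Hdac1-only or Hdac2-only otherwise. Peaks were compared on the mm10 mouse genome, whose chromosomes are those of the GRCm38 assembly that the gene annotation uses.

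The series held 9 libraries of chromatin from haemogenic endothelium grown in culture out of ES cells of 3 lines (Hd2lox, Hd1_loxlox and Bry), with 1 input, 1 Hdac1 and 1 Hdac2 library in each line. All lines were labelled C57BL/6 and untreated. The Hd2lox and Hd1_loxlox cells were at passage 25 to 30 and the Bry cells at passage 16 to 19. The Hdac1 antibody came from Diagenode and the Hdac2 antibody from abcam, and the chromatin precipitation used a Diagenode kit in every library. The names Hd2lox and Hd1_loxlox name an Hdac2 and an Hdac1 allele with lox sites. The submitters' name for the Hdac1 list spells the line Hd2loxlox, while the label of that library and the name of the Hdac2 list spell it Hd2lox, so 1 genotype for both lists rests on the labels. Whether either allele had been deleted in these cells is not given in the labels, and peaks cannot show it. With 1 library for each antibody there is no replicate in any comparison below, so no test was run. The 95% Wilson intervals given with some shares cover the counting of peaks and not the variation between cultures, antibodies or libraries. The lists give positions alone, so the reads behind a peak, its height and the depth of each library are unknown. They hold no expression values, so the labelled cell type could not be checked with marker genes.

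Hdac1 and Hdac2 are closely related class I enzymes that remove acetyl groups from histone tails. Neither binds DNA by itself. Both are carried to chromatin as the catalytic subunits of the Sin3, NuRD, CoREST and MiDAC complexes, in which they can pair with themselves or with each other. Haemogenic endothelium is the embryonic endothelium that gives rise to blood cells, in a change of cell identity that depends on the transcription factor Runx1 and during which Gfi1 and Gfi1b, with Hdac1-containing CoREST, silence endothelial genes. The title of the series ties both enzymes to TGF-beta signalling in that change.

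The promoters below show the kind of DNA under each class of peak: a pair under the widest Hdac1-only peaks at gene ends, a pair under the widest shared regions, a pair under the widest Hdac2-only peaks, and those of the ligand gene Tgfb1 and the receptor gene Tgfbr2. Each run is a RefSeq promoter record (GRCm38.p6) of 250 bases before to 50 bases after a transcription start, written 5′ to 3′ on the strand of the gene. Capitals mark the Sp and Klf box GGGCGG or its complement, which 46.2% of all 21263 promoter records of protein-coding genes held.
Rbms1 promoter, chr2:60963155-60963454, minus strand: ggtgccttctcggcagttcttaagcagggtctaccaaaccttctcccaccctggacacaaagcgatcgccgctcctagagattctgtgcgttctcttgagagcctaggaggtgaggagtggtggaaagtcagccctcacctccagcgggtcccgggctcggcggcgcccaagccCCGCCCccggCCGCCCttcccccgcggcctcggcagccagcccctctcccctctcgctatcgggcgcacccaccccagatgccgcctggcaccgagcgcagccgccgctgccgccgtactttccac
Srgap1 promoter, chr10:122047266-122047565, minus strand: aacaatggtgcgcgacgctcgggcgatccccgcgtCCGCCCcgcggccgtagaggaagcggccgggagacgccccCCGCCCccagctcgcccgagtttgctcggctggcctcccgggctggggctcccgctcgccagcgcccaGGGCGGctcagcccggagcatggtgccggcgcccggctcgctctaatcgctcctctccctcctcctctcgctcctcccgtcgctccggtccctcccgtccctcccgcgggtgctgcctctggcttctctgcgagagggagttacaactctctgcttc
Prdm16 promoter, chr4:154636824-154637123, minus strand: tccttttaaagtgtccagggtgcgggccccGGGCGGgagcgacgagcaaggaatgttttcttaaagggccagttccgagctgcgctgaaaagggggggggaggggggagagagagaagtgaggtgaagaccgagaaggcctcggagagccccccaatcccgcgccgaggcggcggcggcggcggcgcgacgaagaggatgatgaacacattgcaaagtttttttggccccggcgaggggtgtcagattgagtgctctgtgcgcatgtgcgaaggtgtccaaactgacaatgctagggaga
Tshz3 promoter, chr7:36697868-36698167, plus strand: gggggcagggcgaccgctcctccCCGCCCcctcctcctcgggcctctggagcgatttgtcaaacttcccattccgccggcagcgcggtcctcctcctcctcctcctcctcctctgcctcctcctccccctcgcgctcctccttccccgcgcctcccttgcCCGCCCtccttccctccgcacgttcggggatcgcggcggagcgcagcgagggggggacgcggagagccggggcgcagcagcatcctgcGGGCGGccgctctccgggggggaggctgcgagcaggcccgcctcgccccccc
Sypl2 promoter, chr3:108226550-108226849, minus strand: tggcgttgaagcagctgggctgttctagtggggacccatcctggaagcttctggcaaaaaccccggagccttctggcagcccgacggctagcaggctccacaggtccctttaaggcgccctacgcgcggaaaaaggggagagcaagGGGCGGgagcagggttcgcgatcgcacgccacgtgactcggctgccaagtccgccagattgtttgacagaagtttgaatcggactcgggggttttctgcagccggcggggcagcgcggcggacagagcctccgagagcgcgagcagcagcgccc
Uncx promoter, chr5:139543648-139543947, plus strand: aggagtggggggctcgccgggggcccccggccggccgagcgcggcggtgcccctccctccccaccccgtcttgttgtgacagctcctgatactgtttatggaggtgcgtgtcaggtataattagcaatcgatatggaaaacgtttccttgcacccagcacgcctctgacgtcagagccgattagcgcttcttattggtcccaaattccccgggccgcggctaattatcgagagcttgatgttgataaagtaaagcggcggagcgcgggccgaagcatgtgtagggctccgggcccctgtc
Tgfb1 promoter, chr7:25686752-25687051, plus strand: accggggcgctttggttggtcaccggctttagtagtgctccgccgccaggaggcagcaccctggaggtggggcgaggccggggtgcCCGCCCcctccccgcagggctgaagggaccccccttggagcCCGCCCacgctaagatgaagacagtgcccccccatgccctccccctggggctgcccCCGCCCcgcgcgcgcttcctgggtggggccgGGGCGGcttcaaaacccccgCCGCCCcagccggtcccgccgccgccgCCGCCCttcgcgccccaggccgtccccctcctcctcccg
Tgfbr2 promoter, chr9:116175314-116175613, minus strand: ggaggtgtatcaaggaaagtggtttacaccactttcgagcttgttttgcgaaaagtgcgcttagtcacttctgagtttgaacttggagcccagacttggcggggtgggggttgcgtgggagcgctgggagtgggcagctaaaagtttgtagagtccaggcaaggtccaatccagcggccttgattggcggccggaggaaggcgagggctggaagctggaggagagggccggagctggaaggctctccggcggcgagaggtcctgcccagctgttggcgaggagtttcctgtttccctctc
The Rbms1 and Srgap1 promoters lay under Hdac1 peaks alone, held 2 and 3 boxes and had a GC content of 68.3% and 73.3%. The Prdm16 and Tshz3 promoters lay under both enzymes, held 1 and 3 boxes and had a GC content of 61% and 76%. The Sypl2 and Uncx promoters lay under Hdac2 peaks alone, held 1 and 0 boxes and had a GC content of 64.7% and 60.7%. All of these are rich in G and C, and the median over all records was 56.3%. The Tgfb1 promoter, under both enzymes, held 6 boxes at a GC content of 77%, and the Tgfbr2 promoter, under Hdac1 alone, held 0 at a GC content of 59%. The same measures for whole classes follow the results on genes.

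Hdac1 and Hdac2 shared fewer than 1 in 2 of their peaks in Hd2lox cells. Of the Hdac1 peaks, 3252 (43.3%, interval 42.1 to 44.4%) were shared and 4267 (56.7%) were Hdac1-only. Of the Hdac2 peaks, 3281 (36.1%, interval 35.1 to 37.1%) were shared and 5801 (63.9%) were Hdac2-only. The Hdac1 list covered 11.6 Mb and the longer Hdac2 list, with narrower peaks, 8.01 Mb.

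Where the enzymes met, the Hdac2 peak sat inside the Hdac1 peak. Of the 3281 overlapping pairs, the Hdac2 peak lay wholly within the Hdac1 peak in 3018 (92%, interval 91 to 92.9%), and the reverse arrangement occurred in 20. The Hdac1 peak was the wider of the pair in 3232 (98.5%), by a median of 1.58 times (quartiles 1.34 to 1.96). The median Hdac1 peak of a pair was covered over 63.2% of its width (quartiles 50.8 to 74.6%). Almost all shared Hdac1 peaks, 3224, held 1 Hdac2 peak, 27 held 2, and 1 held 3. Grazing contacts were rare, since 5 overlaps took up less than 50% of the narrower peak. Near misses were rare too: 1.1% of the Hdac1-only peaks lay within 1000 bp of an Hdac2 peak, and 0.534% of the Hdac2-only peaks lay within 1000 bp of an Hdac1 peak.

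Width set the classes apart. Hdac1-only peaks had a median width of 1387 bp (quartiles 1122 to 1728) and shared Hdac1 peaks 1506 bp (1251 to 1889), an order that turned (1502 and 1386 bp) when sharing needed a reciprocal overlap of 50%. Hdac2-only peaks had a median of 784 bp (760 to 857) and shared Hdac2 peaks 901 bp (823 to 1035). At the narrowest Hdac1 width of 799 bp there were 85 Hdac1-only peaks (1.99%) and 3 shared ones (0.0923%). At the narrowest Hdac2 width of 760 bp there were 2345 Hdac2-only peaks (40.4%) and 167 shared ones (5.09%). The Hdac2-only class thus piled up at the lower limit of its list, and no source used here says how that limit was set.

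Wider peaks were shared more often. Among Hdac1 peaks the share was 21.3% from 799 to 999 bp, 43.3% from 1000 to 1499 bp, 46% from 1500 to 1999 bp, 50% from 2000 to 2995 bp and 64.2% in the 123 widest. Of the 2512 Hdac2 peaks at 760 bp, 6.65% (interval 5.74 to 7.69%) were shared, against 30.7% of those from 761 to 799 bp, 39.9% from 800 to 899 bp, 53.1% from 900 to 999 bp and 73% (70.5 to 75.3%) of the 1342 that were wider. The climb was steeper in the Hdac2 list. A wider peak also has more room to touch another, and that contribution was not measured.

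**Figure D1:**
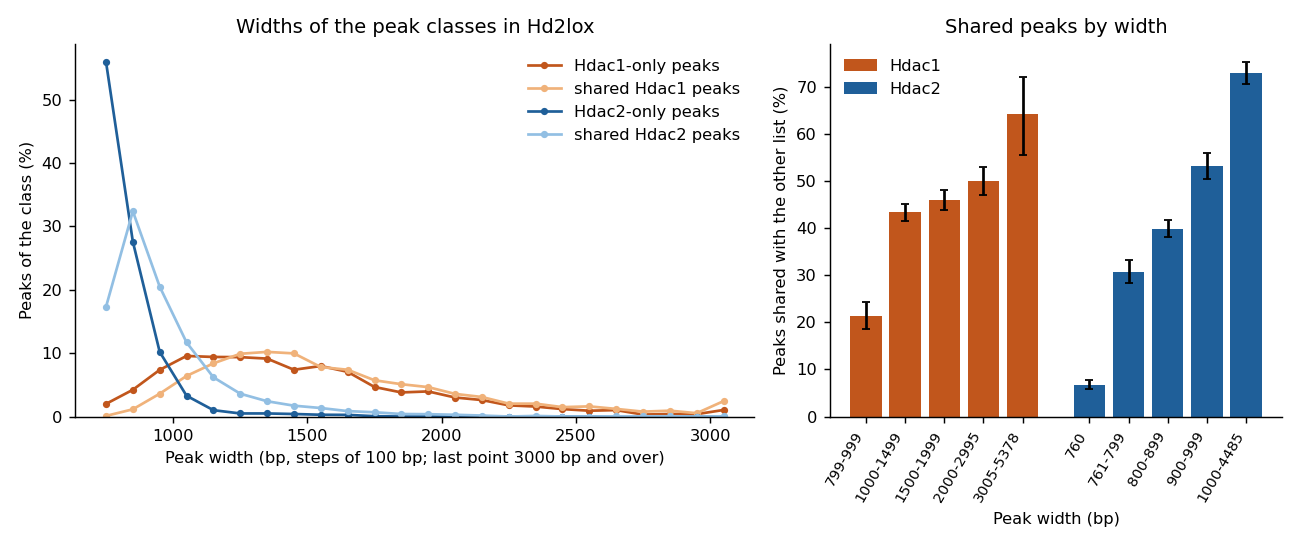
Left, share of each peak class (%) in steps of 100 bp of peak width, with Hdac1-only and shared Hdac1 peaks spread around medians of 1387 and 1506 bp and Hdac2-only and shared Hdac2 peaks crowded at the narrow end (medians 784 and 901 bp). Right, share of peaks overlapping the other list (%) by width, with 95% Wilson intervals for counting, reaching 64.2% in the widest Hdac1 peaks and 73% in the widest Hdac2 peaks.

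The 3 kinds of region lay in different places. Positions were read against the outer ends of protein-coding genes, and a peak within 1000 bp of either end was called a gene end peak. Of the Hdac1-only peaks 52.4% (interval 50.9 to 53.9%) were gene end peaks, 24.9% lay inside a protein-coding gene, 4.8% in another annotated gene and 17.9% outside genes. Of the shared regions, 79% by their Hdac1 peak and 76.4% by their Hdac2 peak were at a gene end, and 1.88% and 2.04% were outside genes. Of the Hdac2-only peaks 3.91% (3.44 to 4.44%) were at a gene end, 38.6% inside a protein-coding gene, 8.45% in another gene and 49.1% outside genes. Hdac1-only peaks thus stood between shared regions, mostly at gene ends, and Hdac2-only peaks, mostly away from them.

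These shares can be read against the room that gene ends take up. A region of the median Hdac1-only width would touch a gene end window at 4.84% of all positions on the annotated span of the chromosomes, against the 52.4% of Hdac1-only peaks that did. A region of the median Hdac2-only width would touch one at 4.04% of positions, against the 3.91% of Hdac2-only peaks that did, and protein-coding genes fill 39.1% of the span. Hdac1-only peaks were at gene ends in 34.2% of cases below 1000 bp and in 50% to 58.8% of cases in the wider steps. The Hdac2-only share stayed low at every width: 3.28% at 760 bp, 3.88% from 761 to 799 bp, 4.69% from 800 to 899 bp, 3.89% from 900 to 999 bp and 4.68% (interval 2.94 to 7.37%) of the 363 wider ones. It was 12.3% when sharing needed a reciprocal overlap of 50% and 27.1% when peaks narrower than the median of their list were left out, settings that move Hdac2 peaks with an Hdac1 partner into the class.

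**Figure D2:**
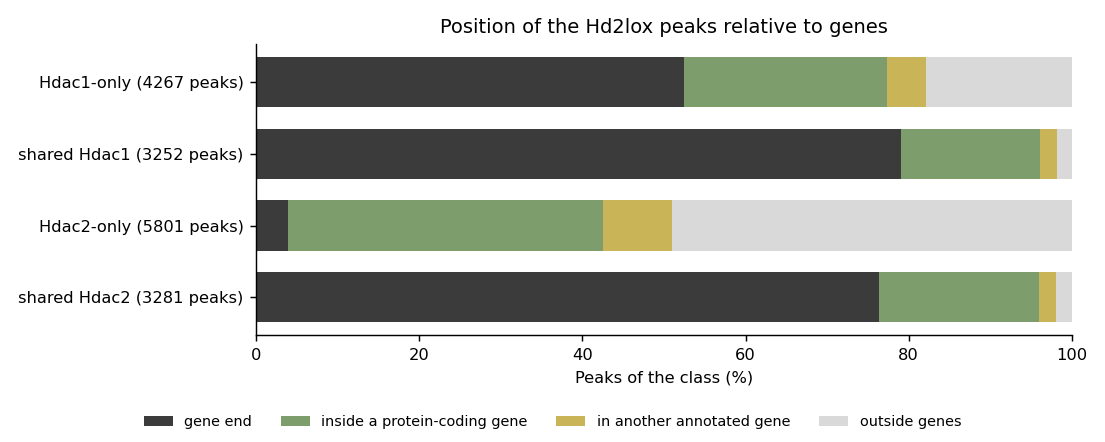
Share of each Hd2lox peak class (%) at a gene end (within 1000 bp of an outer end of a protein-coding gene), inside a protein-coding gene, in another annotated gene or outside genes. Gene ends took 52.4% of the Hdac1-only peaks and 3.91% of the Hdac2-only peaks.

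At gene ends Hdac1-only and shared peaks marked the start of the gene, and Hdac2-only peaks did not. Strand was known for genes with a RefSeq promoter record. Among 1820 Hdac1-only peaks at an end of such a gene, 89.8% lay at the start alone and 3.9% at the far end alone. Among shared regions the values were 90.4% and 3.74% by the Hdac1 peak (n = 2032) and 92% and 3.74% by the Hdac2 peak (n = 1981). Among the 177 Hdac2-only peaks, 50.8% lay at the start alone and 44.1% (interval 37 to 51.4%) at the far end alone. The few Hdac2-only peaks at gene ends were thus split almost evenly between the beginning and the end of the gene.

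Peaks inside genes showed the same division, with starts known only for genes with a promoter record. A transcription start further into the gene, from a second RefSeq promoter or a neighbouring gene, lay within 1000 bp of 240 of 1064 Hdac1-only peaks inside genes (22.6%). The shared regions inside genes had such a start in 264 of 555 cases by the Hdac1 peak (47.6%) and 310 of 642 by the Hdac2 peak (48.3%), and the Hdac2-only peaks in 13 of 2237 (0.581%).

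Around the start itself the peaks of both enzymes leaned into the gene. In 1734 shared pairs whose Hdac1 peak covered 1 start, the median Hdac1 peak ran over bases -521 to 953.5 and the median Hdac2 peak over bases -272.5 to 658, counted from the start with positive values inside the gene. The centres were close, at 209 bp for Hdac1 and 195.5 bp for Hdac2, and the Hdac1 peak reached beyond the Hdac2 peak by a median of 227 bp upstream and 245 bp downstream. The Hdac2 peak covered the start as well in 1501 pairs (86.6%), lay wholly downstream of it in 209 and wholly upstream in 24. The extra width of Hdac1 was thus laid on both sides. Hdac1-only peaks over a start (n = 1510) ran over bases -477 to 842 at the median, slightly less than Hdac1 peaks of shared pairs.

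**Figure D3:**
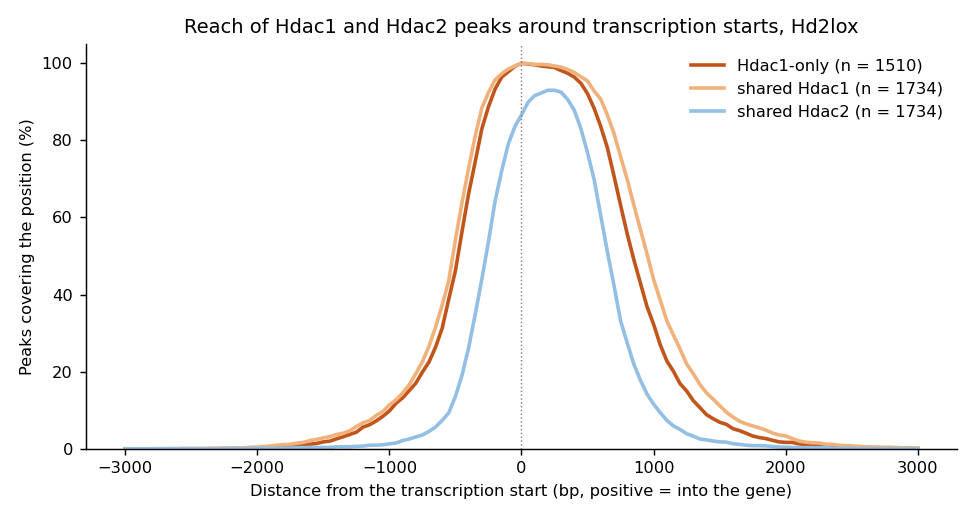
Share of peaks (%) covering each position up to 3000 bp either side of a transcription start, for Hdac1-only peaks (n = 1510) and for the Hdac1 and Hdac2 peaks of shared pairs (n = 1734), each chosen so that the Hdac1 peak covers 1 start. The Hdac2 curve lies within the Hdac1 curves on both sides, with 86.6% of the Hdac2 peaks covering the start.

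The widest Hdac1-only peaks at gene ends lay at Rassf3 (4171 bp), at a predicted gene within Nipbl, the cohesin loader (3802 bp), and at Rbms1, an RNA-binding protein gene (3725 bp). They were followed by Srgap1, whose product acts downstream of Slit and Robo (3581 bp), the dynactin subunit gene Dctn6 (3547 bp), the TFIIA subunit gene Gtf2a1 (3429 bp), Galnt16 (3355 bp) and Vasp, an actin regulator (3325 bp). In the other lines all but Dctn6 were overlapped by the Bry Hdac2 and the Hd1_loxlox Hdac1 lists, and all but Dctn6 and Galnt16 by the Bry Hdac1 list. At 6 of these 8 regions, then, peaks of both enzymes were called in Bry cells.

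The widest Hdac2-only peaks at gene ends were much narrower. They lay at Pole4, a DNA polymerase epsilon subunit gene (1336 bp), Sag, the retinal arrestin gene (1307 bp), Taf7l, a TFIID subunit gene of germ cells (1283 bp), Tspyl5 (1198 bp), Sypl2 (1191 bp), Cmtm2b (1129 bp), the homeobox gene Uncx (1122 bp) and Zfp787 (1093 bp). Of these 8, Taf7l, Sypl2, Cmtm2b and Uncx had a RefSeq start within 1000 bp of the peak. No list of the other lines overlapped any of them, except the Bry Hdac2 list at Tspyl5. Uncx also had an Hdac1 peak of 1711 bp at its other end.

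The widest shared regions held long Hdac1 peaks with a much smaller Hdac2 peak inside. The widest was at Smad7, the inhibitory Smad that TGF-beta signalling induces, where an Hdac1 peak of 5378 bp (chr18:75366731-75372108) held 3 Hdac2 peaks of 1138, 1425 and 814 bp. It is the single Hdac1 peak that held 3. Next came the transcription factor genes Prdm16 (Hdac1 5262 bp, Hdac2 1015 bp), Tshz3 (4713 and 838 bp) and Zfp423 (4517 and 863 bp), then Efcc1 (4388 and 877 bp). At the insulin-like growth factor receptor gene Igf1r the widths were 4243 and 1242 bp and at its adaptor gene Irs2 4238 bp with Hdac2 peaks of 828 and 1719 bp. Other Hdac1 peaks with 2 Hdac2 peaks lay at Zswim6, inside Lingo3, at Arid1b, a subunit of the BAF remodelling complex, and at the early growth response gene Egr4. The Hdac1 peaks at Smad7, Zfp423, Efcc1, Igf1r and Irs2 were overlapped in all of the Bry Hdac1, Bry Hdac2 and Hd1_loxlox Hdac1 lists, and those at Prdm16 and Tshz3 in the Bry Hdac2 and Hd1_loxlox Hdac1 lists.

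The widest Hdac2-only peaks away from gene ends had no counterpart in any other list. Inside genes they lay in Nfia, a nuclear factor I gene (1659 bp), the calcium pump gene Atp2a3 (1635 bp), the zinc finger genes Zfp607a (1634 bp) and Zfp647 (1608 bp), and the neuropeptide receptor gene Npffr2 (1594 bp). Outside genes the widest was 2002 bp (chr8:7170324-7172325), with Efnb2 as the nearest protein-coding gene at 1444910 bp. The next had widths of 1906, 1760, 1752 and 1730 bp, nearest to Lyg1 at 8436 bp, Api5 at 601713 bp, Ldb2 at 156964 bp and Cyp4a12b at 1557 bp. The 5 widest Hdac1-only peaks outside genes, a set named after the values were seen, measured 3048 to 3738 bp and had no counterpart in the other lines either. Hdac1-only peaks outside genes were as wide as other Hdac1 peaks, with a median of 1447.5 bp over 764 of them.

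Counted by gene over the full lists, Hdac2 at a gene end mostly came with Hdac1. Hdac1 peaks were found at an end of 5315 of 21887 protein-coding genes (24.3%) and Hdac2 peaks at an end of 2946 (13.5%). Both were present at 2744 (12.5%), Hdac1 alone at 2571 (11.7%) and Hdac2 alone at 202 (0.923%). The shared genes were 51.6% of the Hdac1 genes and 93.1% of the Hdac2 genes, and at 2728 of the 2744 an overlapping pair of peaks lay at the gene end. At 86 of the genes counted as Hdac1 alone, the Hdac1 peak at the end was a shared one whose Hdac2 peak stayed outside the 1000 bp window. When the peaks narrower than the median of their list were left out, 1288 genes had both and 856 had Hdac2 alone, which includes genes whose narrower Hdac1 peak was left out. Read at RefSeq starts, for the 17492 genes that have one, both were present at 2249 genes, Hdac1 alone at 2073 and Hdac2 alone at 99. Over the whole gene with 1000 bp either side, both were present at 3733 genes, Hdac1 alone at 2687 and Hdac2 alone at 1037. The genes with Hdac2 alone anywhere were long, with a median of 53 kb, as were those with both (45.6 kb), against 29 kb for Hdac1 alone and 17.2 kb for all genes. The part that gene length plays in these counts was not tested.

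Among the TGF-beta and activin genes, 24 of 41 had Hdac1 at an end and 12 had Hdac2, all 12 together with Hdac1. Hdac1 was alone at 12 and Hdac2 at 0, and 17 genes had neither. The share with Hdac1 was 58.5% in the list and 24.3% over all genes, and that with Hdac2 was 29.3% in the list and 13.5% over all genes. The list was drawn up with earlier results of these data known, so its counts are a description. Widths below are summed where a gene had several peaks at its ends. Either outer end counts, so a peak at an end need not lie at a transcription start. In turn, an occupied start inside a gene is not counted. Ltbp4, counted with neither, had both enzymes at a RefSeq start.

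The ligand and receptor genes divided between the classes. Tgfb1, the main ligand gene, had an Hdac1 peak of 1256 bp and an Hdac2 peak of 844 bp at its end. The type I receptor gene Tgfbr1 had both, at 1316 and 803 bp (chr4:47352801-47354116 for Hdac1). The type II receptor gene Tgfbr2 had an Hdac1 peak of 1356 bp at its start (chr9:116174457-116175812) and no Hdac2 peak there, and an Hdac2-only peak of 792 bp inside the gene. That start was covered by both Bry lists and by the Hd1_loxlox Hdac1 list, and the inner peak by no other list. Of the activin receptor genes Acvr2b (1688 and 1018 bp) and Acvr1c (944 and 892 bp) had both at an end. Acvr1b (1583 bp) and Acvr2a (1501 bp) had Hdac1 alone there, and Acvr2a had an Hdac2-only peak of 760 bp inside the gene. Inha, an inhibin subunit gene, had both, and Inhbb and Fst, the genes of an activin subunit and of the activin antagonist follistatin, had Hdac1 alone. Read at RefSeq starts, Inha had Hdac1 alone.

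The Smad genes and their regulators fell in both classes. Smad2 (1843 bp) and Smad3 (3179 bp), the receptor-activated Smads, and their partner Smad4 (1326 bp) had an Hdac1 peak and no Hdac2 peak at an end. So did the Smad corepressor genes Ski (2639 bp) and Skil (2351 bp), the corepressor gene Tgif2 (1462 bp) and the ubiquitin ligase gene Smurf1 (1288 bp). The inhibitor genes Smad7 and Pmepa1 (3300 and 851 bp) had both, as did the ubiquitin ligase gene Smurf2 (1873 and 822 bp), the receptor-binding protein genes Fkbp1a and Zfyve9, and the latent TGF-beta binding protein genes Ltbp1 and Ltbp3. Both were present at 50% of the genes of this list with a peak, against 49.7% over all genes with a peak, so the split between the classes was that of all genes.

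Hdac1 was at 59.1% of the BMP genes and 68.2% of the Notch genes, against 24.3% of all genes, and Hdac2 at 27.3% and 40.9%, against 13.5%. Of 22 BMP genes 13 had Hdac1 and 6 had Hdac2, all 6 with Hdac1. Both lay at the ligand genes Bmp7 (2337 and 1059 bp) and Bmp2 (1937 and 1048 bp), at Smad1, Smad6 and Smad9 and at Bmper. Hdac1 alone lay at the receptor genes Bmpr1a, Bmpr2 and Acvr1, at Smad5, at Bmp6, at the antagonist gene Nog and at Id4 (3146 bp). Of 22 Notch genes 15 had Hdac1 and 9 had Hdac2, again all 9 with Hdac1. Both lay at the receptor genes Notch1 (2073 and 1282 bp), Notch2 and Notch4, the ligand genes Jag1 and Jag2 (2795 and 1949 bp), and the target genes Hes1 and Heyl. At Notch4 no peak of either enzyme lay at a RefSeq start of the gene. Hdac1 alone lay at Notch3, Hes5 and Hey1. In both lists Hdac2 was alone at 0 genes. Of the genes without a peak at an end, Chrd and Rbpj had both enzymes at a RefSeq start and Dll1 had Hdac1 alone. Both enzymes were at 46.2% of the BMP genes and 60% of the Notch genes with a peak, against 49.7% over all genes with a peak.

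Of 34 genes of haematopoietic transcription factors 15 had Hdac1 at an end (44.1%, against 24.3% of all genes) and 8 had Hdac2 (23.5%, against 13.5%), all 8 with Hdac1. Both were at 53.3% of those with a peak, against 49.7% over all genes with a peak. Both lay at Zfpm1, the Gata1 partner Fog1 (4220 and 2537 bp), at Cebpb (2182 and 2046 bp) and Cebpa (2382 and 1429 bp), and at Klf2, Hhex, Kmt2a and Hlf. They also lay at Gata2 (2114 and 809 bp), a regulator of blood stem cell emergence, whose end was empty in the other lines, although a further Hdac1-only peak of 2023 bp inside Gata2 was overlapped by the Bry Hdac1, Bry Hdac2 and Hd1_loxlox Hdac1 lists. Hdac1 alone lay at Cbfb, the Runx1 partner, and at Tal1, Etv6, Myb, Mecom, Ikzf1 and Ikzf2. Runx1 had no peak at an outer end and 1 Hdac1-only peak of 1107 bp at a start inside the gene (chr16:92697043-92698149). Gfi1 had 1 shared region inside the gene, of 1247 bp in the Hdac1 list and 861 bp in the Hdac2 list, and Gfi1b had no peak.

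Of 36 endothelial genes 13 had Hdac1 (36.1%, against 24.3% of all genes) and 5 had Hdac2 (13.9%, near the 13.5% of all genes). Both lay at Foxc2 (2611 and 2177 bp), Efnb2 (1675 and 941 bp), Rasip1, Ets2 and Flt4. Hdac1 alone lay at Sox7, Sox17 and Sox18 (2943 bp), which act in arterial and haemogenic endothelium, and at Ephb4, Flt1, Elk3, Ramp2 and Tal1. Cdh5, Pecam1, Kdr, Tek, Tie1 and Eng, also genes of endothelial surface proteins, had no peak of either enzyme at an end. Of 28 genes used by blood cells 2 had Hdac1 (7.14%, against 24.3% of all genes) and 1 had Hdac2 (3.57%, against 13.5%). Gp1bb had both, and Cd79a had Hdac1 alone, in a peak beyond the far end of the gene. Itga2b, Ptprc, Spi1 and Gata1 had none at an end.

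Of 35 genes of Hdac1 and Hdac2 complex subunits 22 had Hdac1 (62.9%, against 24.3% of all genes) and 14 had Hdac2 (40%, against 13.5%). Both were present at 12, which is 50% of those with a peak, against 49.7% over all genes with a peak. These included Ing1 (4058 and 845 bp), Sap30, Suds3 and Arid4b of the Sin3 complex, Chd3, Mta1 and Cdk2ap1 of NuRD, and Kdm1a (1117 and 1005 bp), Rcor2 and Rcor3 of CoREST. The Hdac2 gene had an Hdac1-only peak of 2187 bp at its start (chr10:36973117-36975303), which both Bry lists and the Hd1_loxlox Hdac1 list overlapped, and the Hdac1 gene had no peak. Hdac2 was alone at the ends of Tnrc18 (857 bp) and Mideas (846 bp), and each of these genes had at least 1 Hdac1-only peak inside the gene. Read at RefSeq starts, Tnrc18 had Hdac1 alone and Mideas had both enzymes. Of 29 Polycomb genes 21 had Hdac1 (72.4%) and 10 had Hdac2 (34.5%), with both at Epop (3447 and 1359 bp), Rnf2, Eed and Jarid2 and Hdac1 alone at Suz12 (2632 bp), Ezh1, Ezh2, Bmi1 and Ring1.

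Of 48 cell cycle genes 20 had Hdac1 (41.7%, against 24.3% of all genes) and 9 had Hdac2 (18.8%, against 13.5%), and both were present at 8. The E2F genes, whose products drive entry into S phase or repress it, all had Hdac1, with both enzymes at an end of E2f1 (1578 and 944 bp), E2f2, E2f5, E2f6, E2f7 and E2f8, and Hdac1 alone at E2f4. At E2f3 the Hdac1 peak (2281 bp) reached the gene end window and the Hdac2 peak it held (1119 bp) lay further into the gene. Both were at the inhibitor gene Cdkn1c (3645 and 2795 bp) and at Cdc25a. Hdac1 was alone at Rb1, Rbl1, Ccna2, Ccne1, Ccne2, Cdk6, Cdkn1b, Cdkn2a and Cdkn2c, and Hdac2 alone at the mitotic kinase gene Plk1 (822 bp). Of 32 immediate early genes 15 had Hdac1 (46.9%) and 8 had Hdac2 (25%), all 8 with Hdac1, among them Egr4 (3431 and 1896 bp), Jund, Ier5 and Klf4, with Hdac1 alone at Egr1, Egr2, Jun, Fosl2 and Nr4a2 (3567 bp). Read at RefSeq starts, Jund had Hdac1 alone.

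Oxidative phosphorylation and cytosolic ribosomal protein genes had a peak at an end less often than all genes in Hd2lox. Hdac1 was at an end of 17.9% of the oxidative phosphorylation genes and 17.6% of the cytosolic ribosomal protein genes, against 24.3% of all genes, and Hdac2 at 2.56% and 7.06%, against 13.5%. Of 78 oxidative phosphorylation genes 14 had Hdac1 and 2 had Hdac2 (Atp5a1 and Atp5d), so both were present at 14.3% of the genes with a peak, against 49.7% over all genes with a peak. Of 85 genes of cytosolic ribosomal proteins 15 had Hdac1 and 6 had Hdac2, with both at 5, which is 31.2% of the 16 with a peak. At Rps23 Hdac2 was alone (800 bp), beyond the far end of the gene. In Bry cells 56 of the 85 ribosomal genes (65.9%) had Hdac1 and 40 (47.1%) had Hdac2, against 31.9% and 34.4% of all genes. Of the 78 oxidative phosphorylation genes 30 had Hdac1 in Bry and 29 had Hdac2.

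Neuronal genes with a peak at an end mostly had both enzymes. Of 50 neuronal adhesion and synapse genes 14 had Hdac1 at an end (28%, against 24.3% of all genes) and 11 had Hdac2 (22%, against 13.5%), all with Hdac1, so both were present at 78.6% of the 14 genes with a peak, against 49.7% over all genes with a peak. The widest were at the synaptic scaffold gene Dlgap1 (2687 and 1444 bp) and the receptor phosphatase gene Ptprt (2329 and 1191 bp), each without a peak at an end in the other lines. Over the whole gene with 1000 bp either side, both were found at 28 of the 50 genes, against 3733 of all 21887. Hdac2 alone was found at 12 of the 50, against 1037 of all 21887. The median length was 995.5 kb in the list and 17.2 kb over all genes. The part of length in these counts was not tested. Among the 12 was Lrp1b, with 5 Hdac2-only peaks of 760 to 1154 bp. None of these Lrp1b peaks was in a list of another line.

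Hox genes, which pattern the body axis, had Hdac1 at an end in 14 of 39 cases (35.9%, against 24.3% of all genes) and Hdac2 in 8 (20.5%, against 13.5%), all with Hdac1. Both lay at Hoxd10 (2029 and 1772 bp), Hoxc13 (1797 and 1490 bp), Hoxd13, Hoxd8, Hoxd1, Hoxa4, Hoxb4 and Hoxb9. In Bry cells 1 of the 39 Hox genes had Hdac1 at an end and 4 had Hdac2. Over all genes the Bry shares were 31.9% and 34.4%. At Hoxd10 neither enzyme had a peak at a RefSeq start of the gene. Of 20 pluripotency genes 4 had Hdac1 (20%, against 24.3% of all genes) and the same 4 had Hdac2 (20%, against 13.5%). These were Klf5, Fgf4, Dnmt3b and Sox2 (1204 and 811 bp). Over all genes with a peak 49.7% had both, and 4 genes are too few to compare with that. Of 33 cardiac, smooth muscle and mesenchymal genes 8 had Hdac1 (24.2%, against 24.3% of all genes) and 4 had Hdac2 (12.1%, against 13.5%), which is near the background. These 4 had both, namely Nkx2-5 (1475 and 1686 bp), Twist1, Hand2 and Zeb1. At Nkx2-5 the Hdac2 width was the larger, and no peak of either enzyme lay at a RefSeq start of the gene. Receptor genes of the nose were almost empty. Of 1106 olfactory receptor genes 4 had Hdac1 (0.362%, against 24.3% of all genes) and 7 had Hdac2 (0.633%, against 13.5%). Hdac2 was alone at 6 of the 1106, each a peak of 760 bp, and at 202 of all 21887 genes. Of 353 vomeronasal receptor genes 3 had Hdac1 (0.85%) and 2 had Hdac2 (0.567%).

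**Figure D4:**
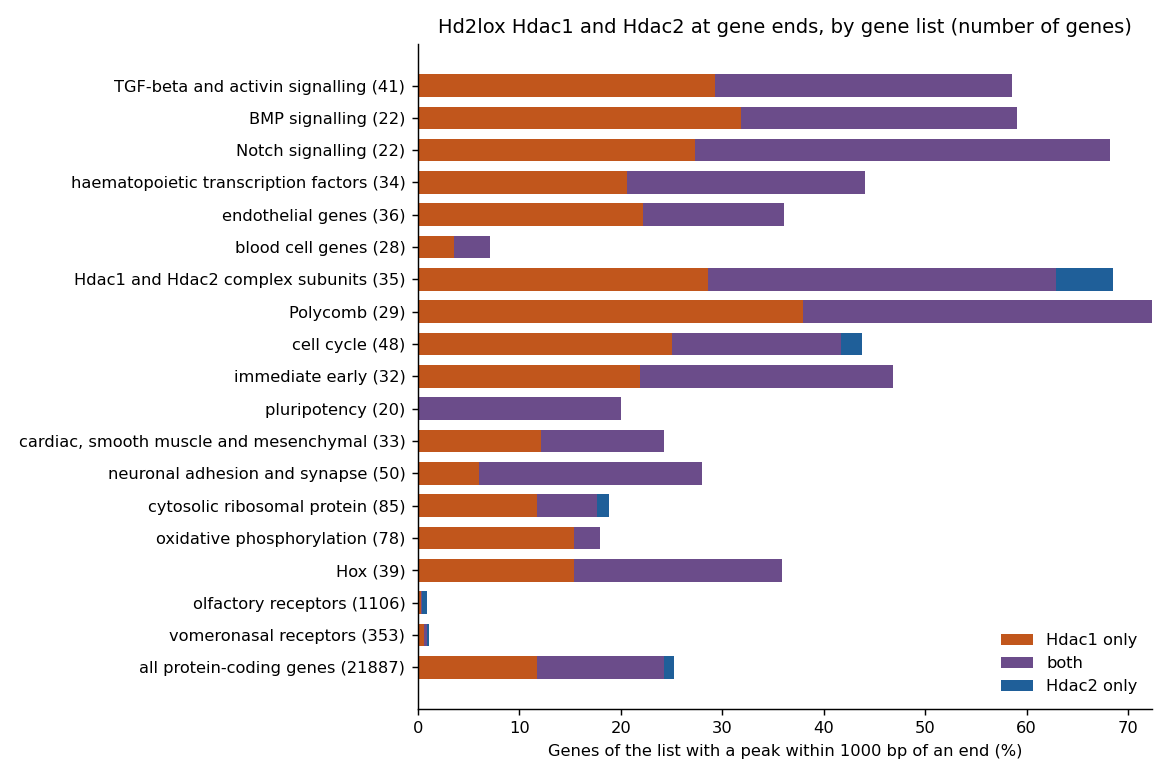
Share of the genes in each list (%) with Hdac1 only, both enzymes or Hdac2 only within 1000 bp of an end in Hd2lox cells, with the number of genes in brackets and all 21887 protein-coding genes in the last bar. Hdac1 was at 58.5% of the TGF-beta and activin genes, 59.1% of the BMP genes, 68.2% of the Notch genes and 24.3% of all genes, of which 0.923% had Hdac2 only.

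Some genes had an Hdac1-only and an Hdac2-only peak in different places. At 308 of the 21887 protein-coding genes an Hdac1-only peak lay at an end and an Hdac2-only peak elsewhere in the same gene. Of all Hdac2-only peaks 38.6% lay inside a protein-coding gene, and such genes fill 39.1% of the span. The part that gene length plays in this count was not tested. The largest by summed width were the calcium channel gene Cacna1a (an Hdac1-only peak of 2071 bp and 4 Hdac2-only peaks of 760 to 847 bp), the potassium channel gene Kcnq5 (1581 bp, and 4 of 760 to 875 bp), Eif2ak1, a kinase that restrains protein synthesis when haem is short (3123 bp, and 2 of 760 and 786 bp), Immp2l, Anks1b and Herc1.

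The 4 lists of the other lines did not enter the classes, so they show which Hd2lox regions turned up again. Hdac1-only peaks at gene ends were overlapped as often as shared ones: by the Bry Hdac1 list in 67.5% of Hdac1-only and 63.9% of shared Hdac1 peaks, by the Bry Hdac2 list in 72.8% and 72.9%, and by the Hd1_loxlox Hdac1 list in 69% and 68.4%. A region with Hdac1 alone in Hd2lox at a gene end was thus as often an Hdac2 region in Bry as a shared one was. Of the genes with Hdac1 only at an end in Hd2lox 62.5% had both enzymes in Bry, of the genes with both 59.8%, and of the genes with neither 15.1%. The Hd1_loxlox Hdac2 list overlapped few peaks of any class, between 1.32% and 4.44% at gene ends.

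Away from gene ends the classes parted. In at least 1 of the 4 lists were found 19.8% (interval 18.1 to 21.6%) of the Hdac1-only peaks at no gene end and 64.5% (60.8 to 68%) of the shared Hdac1 peaks there. Outside genes the Hdac1-only peaks were in the Bry Hdac1 list in 2.49% of cases. Of all 5801 Hdac2-only peaks 75 (1.29%, interval 1.03 to 1.62%) were in any of the 4 lists, with 14.5% of those at gene ends and 0.753% of the rest. The corresponding shares for all Hdac1-only and shared Hdac1 peaks were 53.9% and 80.1%. Hdac2-only regions of Hd2lox were thus rarely called in the other lists. The line, the antibody library and the depth cannot be told apart in this, with 1 library each.

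**Figure D5:**
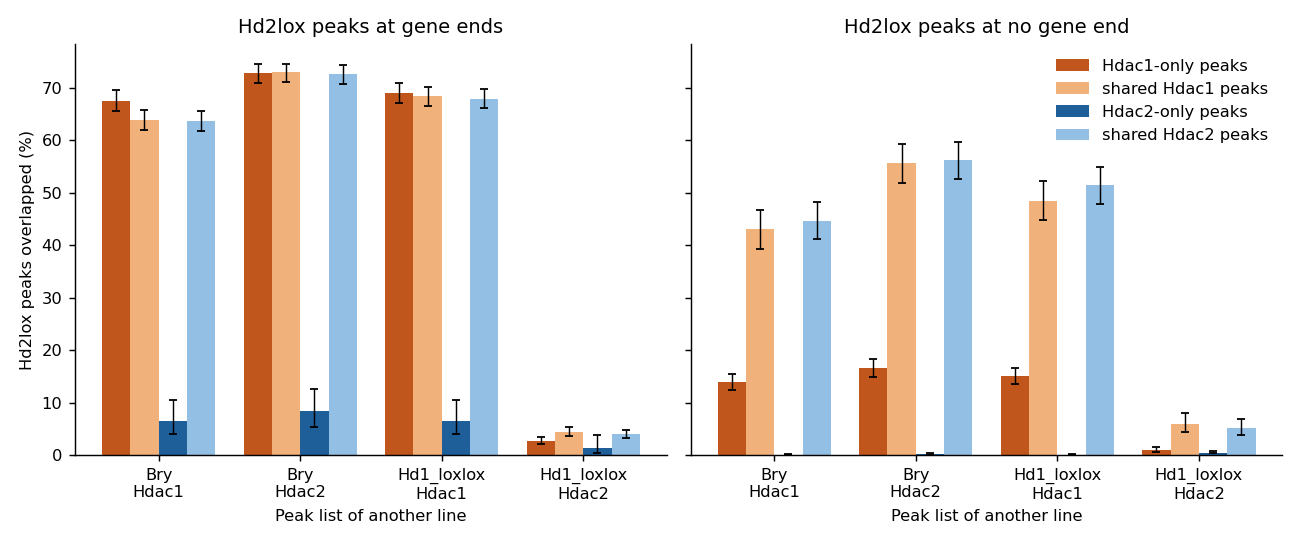
Share of Hd2lox peaks (%) overlapped by at least 1 bp of a peak in each of the 4 lists of the other lines, for peaks at gene ends (left) and at no gene end (right), with 95% Wilson intervals for counting. At gene ends Hdac1-only peaks stand level with shared peaks (67.5% and 63.9% in the Bry Hdac1 list), and Hdac2-only peaks are near 0 at no gene end (0.753% in any list).

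The relation between the enzymes differed in value between the lines. Shared peaks made up 43.3% of the Hdac1 list in Hd2lox, 4.26% in Hd1_loxlox and 79.7% in Bry, and 36.1%, 6.2% and 66.1% of the Hdac2 lists in the same order. The Hdac2 peak lay inside the Hdac1 peak in 92% of the pairs in Hd2lox, 64.4% in Hd1_loxlox and 24.6% in Bry, with median width ratios of Hdac1 over Hdac2 of 1.58, 1.81 and 1.01. Hdac2-only peaks were at gene ends in 3.91% of cases in Hd2lox, 7.02% in Hd1_loxlox and 54% in Bry, and Hdac1-only peaks in 52.4%, 80.3% and 69.3%. The share of Hdac2 peaks at the narrowest width of their list was 27.7% in Hd2lox, 4.2% in Hd1_loxlox and 0.851% in Bry. Of the 3 lines, Hd2lox thus had the largest share of nested pairs and of Hdac2 peaks at the narrowest width, and Hd1_loxlox the largest ratio of widths. The lines also differed in passage, and each value comes from 1 library for each antibody.

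Promoters under Hdac1 alone and under both enzymes were alike in base composition. The promoter records were sorted by the peaks on them into Hdac1 only (2629), both (2250), Hdac2 only (72) and none (16312). The median GC content was 67.7% with Hdac1 only, 70.3% with both and 66% with Hdac2 only, against 53.3% with neither. The CpG ratio, which sets the count of CG pairs against the count that the C and G content would give, had medians of 0.86, 0.885, 0.746 and 0.395 in that order. Promoters with a CpG ratio over 0.6 and a GC content over 55% made up 82% of the Hdac1-only class, 89.2% of those with both, 65.3% of those with Hdac2 only and 27.2% of those with neither. Of the 8643 promoters of that kind, 24.9% had Hdac1 only, 23.2% had both, 0.544% had Hdac2 only and 51.3% had none, so occupied promoters were mostly of the CpG-rich kind but covered fewer than 1 in 2 of it.

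Of 12 short motifs searched on both strands, the Sp and Klf box GGGCGG differed most in percentage points between occupied and empty promoters. It was in 78.1% of promoters with Hdac1 only, 82.3% with both and 68.1% (interval 56.6 to 77.7%) with Hdac2 only, against 36% with neither. The ETS motif CCGGAAG was in 15% (13.7 to 16.4%) of promoters with Hdac1 only, 11.9% (10.6 to 13.3%) with both and 11.6% of all promoters. The NF-Y box CCAAT was in 32.9% with Hdac1 only, 27.1% with both and 38.2% of all. Both motifs were thus somewhat more common under Hdac1 alone than under both enzymes. The TATA motif TATAAA was in 5.06% with Hdac1 only, 2.93% with both, 15.3% with Hdac2 only and 12.6% of all, the AP-1 motif TGANTCA in 2.74%, 3.33%, 8.33% and 6.99%, and the GATA motif AGATAA in 3.5%, 2.62%, 5.56% and 9.65%. The Runx motif TGTGGT was in 9.09%, 6.49%, 8.33% and 15%, the Smad motif CAGAC in 42.6%, 42%, 33.3% and 48.4%, and the Rbpj motif TGGGAA in 18.8%, 15.6%, 19.4% and 24.5%. The E-box CACGTG was in 11%, 10.4%, 11.1% and 7.84%, the NRF1 motif GCATGCGC in 5.29%, 4.89%, 2.78% and 3.52%, and the CRE motif TGACGTCA in 2.62%, 2.62%, 2.78% and 2.23%. Under Hdac1, alone or with Hdac2, the Sp and Klf, E-box and NRF1 motifs were thus more common than among all promoters and the TATA, AP-1, GATA, Runx, Smad, Rbpj and NF-Y motifs less common, and the GC content given above moves with these shares. A match describes the letters of a promoter record and is not a site of binding.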

How the data were processed

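Hdac1 and Hdac2 ChIP-seq libraries of haemogenic endothelium were deposited as 6 peak lists of chromosome, start and end, with no heights, scores or read counts. Per the submitters' processing notes, bcl2fastq, Bowtie2 2.2.9, SAMtools 1.3.1, MACS2 2.1.1.20160309 and mm10 were used. For the threshold and mode of peak calling, and any use of the inputs in it, nothing is stated in the labels or headers. The inputs were not analysed here. A threshold or depth that differed between libraries would move every share of peaks.

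From the deposited positions, overlaps of at least 1 bp, widths and distances were computed with Python 3.11.15, pandas 2.3.3, numpy 2.4.6 and scipy 1.17.1. Genes and promoters came from RefSeq GRCm38.p6: 21887 protein-coding genes on chromosomes 1 to 19, X and Y, with promoter records for 17492. The other 4395, among them those on chromosome 18, had none, so their starts could not be counted. The overlap code was tested on simulated intervals. Genes were named by peak width: the 8 widest peaks of each class at gene ends, the 6 Hdac1 peaks holding most Hdac2 peaks, the 5 widest Hdac2-only peaks inside and outside genes, the first 6 genes with separate peaks, up to 12 members a list, and 8 genes of this biology; other list members are named to fill out their counts. Some genes that these rules picked are not reported here. The members, lists and rules were chosen with earlier results of these data known. Alternatives changed the overlap, the gene window and the peaks kept.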

Additional observations from a re-analysis of the deposited data

How the results depend on the processing

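Of 85 alternative values, 45 stayed within the counting interval of the value reported (for counts of genes, within 1.5 times of it) and 40 did not. With a reciprocal overlap of 50%, the shared part was 33.3% of the Hdac1 list and 27.6% of the Hdac2 list, gene end peaks were 56.7% of the Hdac1-only and 12.3% of the Hdac2-only peaks, and the median widths were 1502 bp (Hdac1-only), 1386 bp (shared Hdac1), 792 bp (Hdac2-only) and 920 bp (shared Hdac2), so that Hdac1-only peaks became wider than shared Hdac1 peaks. With the peaks at least as wide as the median of their list, the shared part was 39% and 32.7%, gene end peaks were 55.8% and 27.1%, the widths in the same order 1775, 1830.5, 896 and 1006.5 bp, and the genes with both, Hdac1 only and Hdac2 only at an end 1288, 1513 and 856. Both settings move Hdac2 peaks nested in Hdac1 peaks, or paired with Hdac1 peaks that were left out, into the Hdac2-only class by construction. With the Hdac2 list shortened by width to 7519 peaks, the shared part was 41.9% and 42.2% and the Hdac2-only width 817 bp. Without the peaks at the minimum width of their list, an alternative added after seeing the data, the shared part was 41.5% and 47.4%, 54% of the Hdac1-only peaks were at gene ends, the Hdac2-only and shared Hdac2 widths were 841 and 911 bp, and 134 genes had Hdac2 only. Gene end shares were 49.9% for Hdac1-only and 2.86% for Hdac2-only peaks in a window of 500 bp, 57% and 7.83% in 2500 bp, 45.5% and 1.76% at transcription starts alone, and 57.7% and 8.88% over all annotated genes. Genes with Hdac2 only numbered 384 in a window of 2500 bp, 99 at starts, 508 over all annotated genes and 1037 over the gene body with 1000 bp either side. Peaks at genes without a promoter record stayed in the totals of the shares at transcription starts. Hdac1-only peaks were at gene ends more often than Hdac2-only peaks under each of these settings. No paired analysis was possible because each antibody had 1 library in this line. The unknown depth and peak threshold limit every statement on a missing peak: a region outside a list was not called there, which is not shown to be unoccupied.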

Other observations

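MicroRNA hairpins carried the same classes in small numbers, looked up after the data were seen. Of 1005 RefSeq hairpins, 24 lay under Hdac1 peaks alone, 20 under peaks of both enzymes and 2 under Hdac2 peaks alone, and 959 under none. The Mir212 and Mir132 pair shared 1 Hdac1-only peak of 2044 bp, and their 3p products, shown with the seed (bases 2 to 8) in capitals, share that seed.
mmu-miR-212-3p, chr11:75173443-75173464, plus strand: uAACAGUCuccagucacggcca
mmu-miR-132-3p, chr11:75173723-75173744, plus strand: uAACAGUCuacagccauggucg
Mirlet7i, of the let-7 family that is held low in ES cells, lay under an Hdac1-only peak of 1872 bp, and Mir9-3 and Mir219a-1, known from neural tissue, under Hdac1-only peaks of 2037 and 1523 bp. Each of these was overlapped by the Bry Hdac1, Bry Hdac2 and Hd1_loxlox Hdac1 lists.
mmu-let-7i-5p, chr10:122985698-122985719, minus strand: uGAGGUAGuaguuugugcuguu
Mir193a lay in a shared region (Hdac1 1716 bp, Hdac2 1275 bp), Mir203 in another (1360 and 1261 bp) and Mir1247 in one of 2130 and 810 bp that no other list overlapped. The Hdac2-only hairpins were Mir1981, under a peak of 865 bp, and Mir5133, under a peak of 760 bp. Mir5133 was overlapped by the Bry Hdac1, Bry Hdac2 and Hd1_loxlox Hdac1 lists, and Mir1981 by no list of the other lines.

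A set of genes had both enzymes at an end in Hd2lox cells and no peak there in any of the 4 lists of the other lines. They numbered 377, or 13.7% of the 2744 genes with both. The same absence from the other lines held for 12.6% of the genes with Hdac1 only and 66.3% of those with Hdac2 only. The largest by summed width, picked after the values were seen, were Dmrta2 (Hdac1 5387 bp, Hdac2 1223 bp), the cell cycle inhibitor gene Cdkn1c (3645 and 2795 bp), the glutamate receptor subunit gene Grin3b (3328 and 2663 bp), the neural crest gene Foxd3 (3888 and 1975 bp), Pank4 (4184 and 784 bp), the BMP family gene Gdf7 (2579 and 2035 bp) and Foxe1 (2751 and 1706 bp). Of the Hdac1-only peaks 1.87% lay on chromosome X, of the shared Hdac1 peaks 0.953% and of the Hdac2-only peaks 0.793%. That chromosome holds 966 of the 21887 protein-coding genes.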
